A study of Mus musculus with 8 samples.

Results

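The genes described here encode cytokines that dendritic cells and macrophages release, outside the IL-1 family. They were taken from the deposited count table by symbol: Il12a, Il12b, Il23a, Il27, Ebi3, Il6, Il10, Il15, Tgfb1 and Tnf. Of these 10 genes, 9 had a row among the 13786 protein-coding genes of the table, and the level of Il23a was not analysed here because it has none. Each gene was measured by RNA sequencing of CD11c-positive splenocytes from female mice that were 7 weeks old. A group of 4 C57BL/6 mice, the control strain, was compared with a group of 4 B6.SLE123 mice. B6.SLE123 mice carry the Sle1, Sle2 and Sle3 lupus susceptibility intervals on the C57BL/6 background. The mice of both strains were purchased animals, and no treatment is given for either group. At this age the comparison asks which cytokine transcripts already differ between the strains before overt disease. Dendritic cells carry CD11c, as do some macrophages and lymphocytes, and each sample is a mixture of cells. The bounds of the susceptibility intervals were not used here, and whether a cytokine gene lies inside one was not tested.

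Myeloid cytokines decide what kind of response follows when a dendritic cell or macrophage meets a lymphocyte. The IL-12 family is built from pairs of chains that are shared between cytokines. Il12b pairs with Il12a to make IL-12 and with Il23a to make IL-23, and Ebi3 pairs with Il27 to make IL-27 and has been described to pair with Il12a in IL-35. IL-12 drives interferon-gamma production by T and NK cells, and IL-27 can both promote and restrain T cell responses. TNF and IL-6 are classical inflammatory cytokines, IL-10 and TGF-beta restrain inflammation, and IL-15 sustains NK cells and memory CD8+ T cells. Many cytokine messages are short-lived because AU-rich elements in their 3′ untranslated regions (3′ UTRs) are bound by decay proteins such as tristetraprolin, the product of Zfp36.

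The 3′ UTRs of the cytokine genes differed widely in how many copies of an AU-rich heptamer they held. The letters TATTTAT, an AU-rich heptamer, were counted on the sense strand of the 3′ UTR of the longest protein-coding transcript in GENCODE M21, with overlapping matches each counted. In the 13617 genes of the table with such a 3′ UTR, 28.9% held at least 1 heptamer, and the median 3′ UTR length was 1096 bases. Tnf held 8 heptamers in 764 bases, Il12a 5 in 497 bases, Il23a 5 in 657 bases, Il27 4 in 285 bases and Il10 4 in 706 bases. Among genes whose 3′ UTR was within 20% of the same length, a count as high was found in 0.0651% for Tnf, 0.312% for Il12a, 0.205% for Il23a, 0.108% for Il27 and 0.478% for Il10. These shares include the gene itself, except for Il23a, which has no row. For Tnf, among 1535 genes, and Il27, among 924, the share is that gene alone. Il12b held 1 heptamer in 774 bases and Il6 held 1 in 1668 bases, against shares of 19.8% and 35.0% of genes of like length with at least 1. Ebi3, Il15 and Tgfb1 held none in 245, 277 and 135 bases. The shorter AU-rich core ATTTA gave another order, with 10 matches in Il6, 8 in Tnf and 5 in Il27. Il12a, Il12b, Il23a and Il10 held 6 each, and Ebi3, Il15 and Tgfb1 held 1 each. By this core Il12b did not differ from Il12a or Il23a, and 67.8% of the genes of the table held at least 1. Windows of 30 bases holding the most heptamers are shown for Tnf, Il10 and the IL-12 family chains that hold any. The heptamers are in capitals, and they are shown because their number differs between chains that share a cytokine:
Tnf, chr17:35199678-35199707, minus strand: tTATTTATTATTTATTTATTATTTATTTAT
Il12a, chr3:68698436-68698465, plus strand: cTATTTATATTTATTTATtttcTATTTATt
Il23a, chr10:128296179-128296208, minus strand: tgatggtTATTTATtcTATTTATaaggaat
Il27, chr7:126589087-126589116, minus strand: gaTATTTATttcttggaTATTTATTTATtt
Il10, chr1:131024384-131024413, plus strand: ctctctccgaaaTATTTATtacctctgata
Il12b, chr11:44413477-44413506, plus strand: aagtaatttatgTATTTATtaatttatttc
The positions are those of mm10, and each window lies in the 3′ UTR within 1 exon. A match is a description of the letters and does not show that a protein binds there.

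Among the 9 cytokine genes in the table, edgeR's quasi-likelihood test called 1 as higher and 5 as lower in the lupus-prone strain, with 0.05 as the limit of the adjusted p. Il12b rose, Il27, Tgfb1, Il15, Tnf and Il12a fell, and Ebi3, Il6 and Il10 did not pass the test. Of all genes in the table, 53.4% were called, 26.7% as higher and 26.6% as lower. Thus 6 of 9 called is near the background, and 5 of 9 lower is a larger share than in the table. The 5 include Il12a, whose adjusted p of 0.0497 from edgeR was just under the limit. With DESeq2, with limma-voom and with the replicate number as a block, 4 were called lower. The median log2 fold change, given throughout as B6.SLE123 over C57BL/6, was -0.38 for the cytokine genes and -0.002 for all genes. For 4 of the 9 genes, Il27, Tgfb1, Il15 and Tnf, each B6.SLE123 mouse lay below each C57BL/6 mouse, while 48.9% of all genes showed no overlap between the strains in either direction. Il27 alone among the cytokine genes was called and more than 2-fold changed, a pair of criteria that 11.1% of all genes met.

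The cell mixture differed between the strains as well. Levels are given as CPM, the counts of a gene per 1000000 counts of the mouse after TMM scaling. Red pulp macrophage markers fell in 12 of 12 genes, and their summed level was 13250.2 to 16798 CPM in C57BL/6 mice and 1870.5 to 3735 CPM in B6.SLE123 mice. Markers common to dendritic cells rose in 6 of 6 genes, with sums of 22329.6 to 26114 CPM and 27564 to 29001 CPM. Type 1 conventional dendritic cell markers rose in 6 and fell in 1 of 8 genes, with sums of 2847 to 3228 CPM and 4639 to 5974 CPM, and type 2 markers fell in 4 of 8, with sums of 2016 to 2202 CPM and 1124 to 1382 CPM. Mature dendritic cell markers rose in 8 of 10 genes, with sums of 1092 to 1339 CPM and 1615 to 1823 CPM. Monocyte markers rose in 1 and fell in 3 of 10 genes, neutrophil markers rose in 1 and fell in 4 of 7, and B cell markers fell in 7 of 8. Plasmacytoid dendritic cell markers rose in 1 and fell in 3 of 8, plasma cell markers rose in 3 and fell in 2 of 7, NK cell markers rose in 1 and fell in 1 of 8, and T cell markers fell in 1 of 7. Erythroid markers fell in 7 of 8 genes, with sums of 79.1 to 264.9 CPM and 8.67 to 39.0 CPM, and proliferation genes rose in 8 of 8, with sums of 578 to 639.6 CPM and 1059 to 1382 CPM. No gene of these lists was at 0 in every mouse. In such bulk samples, fewer cells of a type and less RNA per cell cannot be told apart. The part of these shifts in the cytokine differences was not tested.

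**Figure D1:**
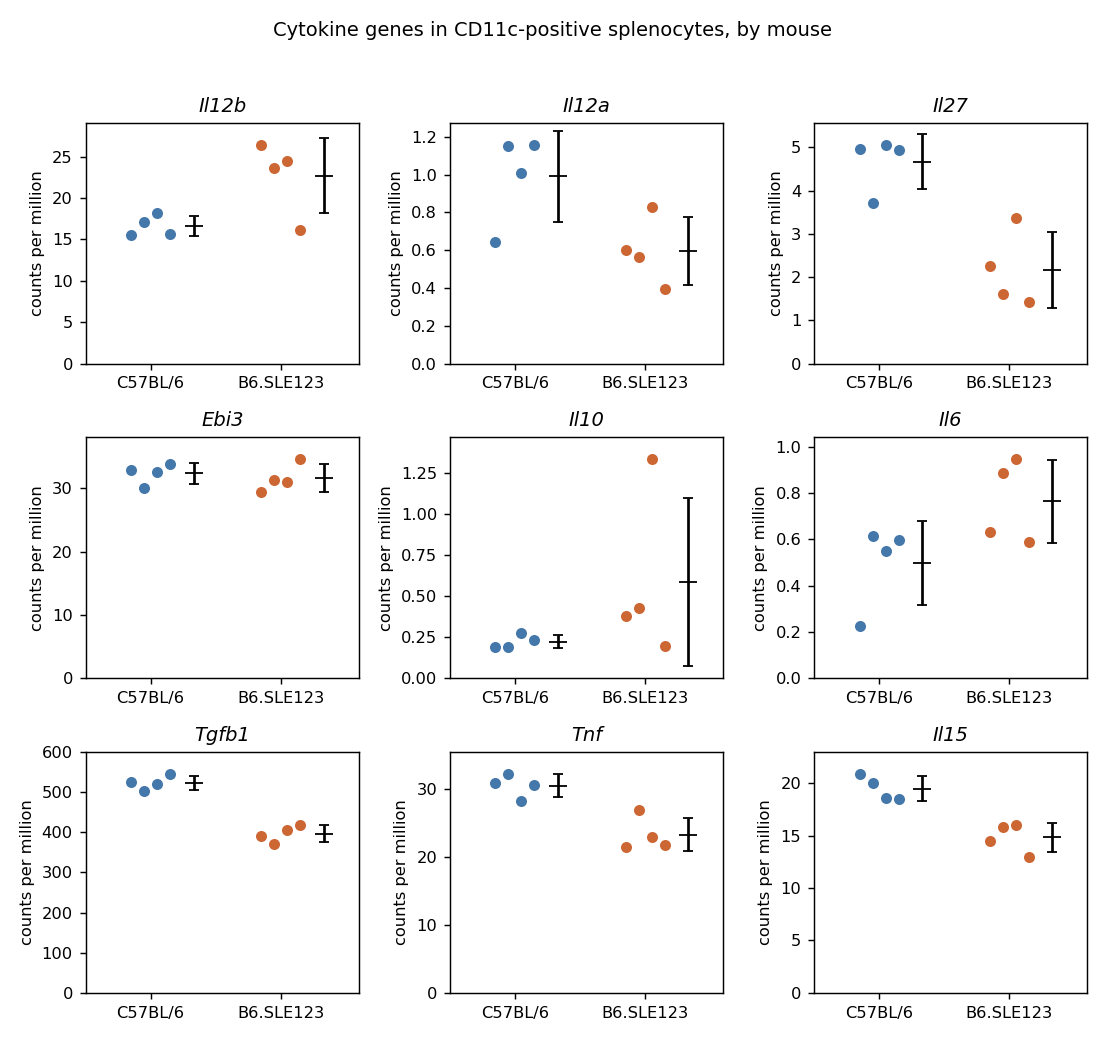
Level of each cytokine gene in each mouse, in CPM, on vertical axes that start at 0 and differ between panels. Points are the 4 mice of a strain, and the bar beside them is the mean with the standard deviation. Every B6.SLE123 mouse lies below every C57BL/6 mouse for Il27, Tgfb1, Tnf and Il15, while 1 B6.SLE123 mouse lies among the C57BL/6 mice for Il12b.

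To compare genes with each other, levels were divided by the union length of the exons, giving CPM per kilobase. In C57BL/6 mice the order of the mean levels was Tgfb1 at 103.7, Ebi3 at 28.0, Tnf at 18.6, Il15 at 8.61, Il12b at 8.45, Il27 at 4.57, Il12a at 0.582, Il6 at 0.204 and Il10 at 0.169 CPM per kilobase. The ranges over mice overlapped for the neighbours Il15 and Il12b and for Il6 and Il10, and for no other neighbours in that order. In B6.SLE123 mice Il12b stood above Il15, at a mean of 11.5 against 6.55 CPM per kilobase, and their ranges no longer overlapped. Its range of 8.23 to 13.4 CPM per kilobase reached that of Tnf, 13.2 to 16.4 CPM per kilobase. Il27 stood at 2.12 CPM per kilobase in these mice, and Il10, Il12a and Il6 at 0.446, 0.351 and 0.315 CPM per kilobase had overlapping ranges. With the length of the longest transcript in place of the union, the order of the means was the same in C57BL/6 mice, and in B6.SLE123 mice Il12a stood above Il10. On this scale the Ebi3 message stood above that of each chain it pairs with, Il27 and Il12a, in both strains.

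Il12b encodes the chain that IL-12 and IL-23 share, and it was the only cytokine gene called higher in B6.SLE123 mice. It lies on chromosome 11 from 44400063 to 44414033 on the plus strand, has 8 exons in its longest transcript and overlaps no other annotated gene. Il12b stood at 15.5, 17.2, 18.1 and 15.7 CPM in the C57BL/6 mice and at 26.5, 23.6, 24.5 and 16.2 CPM in the B6.SLE123 mice. B6.SLE123 replicates 1 to 3 were above every C57BL/6 mouse, and replicate 4 lay within the range of that strain. The means were 16.6 ± 1.25 CPM and 22.7 ± 4.50 CPM (SD, n = 4 each), a log2 fold change of 0.45 with a standard error of 0.13 and an adjusted p of 0.0126 from edgeR's quasi-likelihood test. B6.SLE123 replicate 4 also had the lowest sum of type 1 conventional dendritic cell markers of its strain, 4639 CPM, and the highest sums of red pulp macrophage markers, 3735 CPM, of type 2 conventional dendritic cell markers, 1382 CPM, and of mature dendritic cell markers, 1823 CPM. The part of these differences in its Il12b level was not tested. Without that mouse the log2 fold change was 0.57.

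The promoter of Il12b, from 250 bases before to 50 bases after the start in RefSeq on GRCm38.p6, is shown because PU.1, the ETS factor that the study examined, is a regulator of myeloid genes. Capitals mark the letters GAGGAA or their reverse complement TTCCTC, a core of PU.1 sites:
Il12b, chr11:44399813-44400112, plus strand: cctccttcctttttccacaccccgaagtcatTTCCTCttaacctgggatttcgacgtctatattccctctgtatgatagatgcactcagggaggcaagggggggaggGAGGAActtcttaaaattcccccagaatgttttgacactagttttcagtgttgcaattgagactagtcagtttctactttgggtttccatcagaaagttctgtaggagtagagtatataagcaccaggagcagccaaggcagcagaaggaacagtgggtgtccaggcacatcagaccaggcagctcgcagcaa
This window held 2 matches, 1 on each strand, and 28.3% of the 32851 promoters in the table held at least 1. Of the other cytokine genes with a promoter in the table, Ebi3 and Tnf held 1 match each, and Il12a, Il6 and Tgfb1 held none. None of the other letters searched, on both strands, occurred in the Il12b window: GGGANTTTC for NF-kB, TATAAA for a TATA box, TGANTCA for AP-1, TTGCNNAA for C/EBP and GGGCGG for a GC box. These occurred in 1.11%, 13.6%, 7.81%, 10.8% and 35.7% of all promoters. Only these exact letters were searched, and binding sites can differ from them. The lack of a match therefore does not show that a site is missing, and a match does not show that a protein binds.

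Il12a encodes the chain that makes IL-12 when it pairs with the product of Il12b. It lies on chromosome 3 from 68690644 to 68698547 on the plus strand and overlaps no other annotated gene. Il12a was a rare message, with 17, 30, 33 and 35 counts in the C57BL/6 mice and 19, 21, 28 and 10 counts in the B6.SLE123 mice. These counts came to 0.643, 1.15, 1.01 and 1.16 CPM and to 0.601, 0.564, 0.8286 and 0.394 CPM. Every B6.SLE123 mouse was below the C57BL/6 mean, but C57BL/6 replicate 1 lay inside the range of the other strain. The log2 fold change was -0.71 with a standard error of 0.28, and the adjusted p of 0.0497 from edgeR's test was just under the threshold. It was above the threshold in DESeq2 (adjusted p = 0.0661), in limma-voom (adjusted p = 0.0547) and when any mouse other than C57BL/6 replicate 1 or B6.SLE123 replicate 3 was left out of the edgeR fit (adjusted p = 0.0840 to 0.115), so the call for Il12a rests on the choice of test and mice.

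The chains of IL-12 were also compared within each mouse, as the log2 ratio of Il12b counts to Il12a counts with 0.5 added to each, which does not depend on library size. The ratio is built from the same counts as the tests of the single genes, including the few of Il12a. It is not separate support for their calls. There were 23.5, 14.7, 17.8 and 13.4 Il12b counts per Il12a count in the C57BL/6 mice and 42.9, 40.9, 29.1 and 39.2 in the B6.SLE123 mice. No mouse of a strain reached the range of the other. The mean log2 ratio was 4.08 ± 0.36 in C57BL/6 mice and 5.23 ± 0.25 in B6.SLE123 mice (SD, n = 4 each), a difference of 1.15 or 2.22-fold. An exact two-sided permutation test over mice gave p = 0.0286, the smallest that 4 mice against 4 allow, and 0.0429 after Benjamini-Hochberg adjustment over the 3 ratios tested. The ratio of Il12b to Il23a, the chains of IL-23, was not analysed here.

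Il27, the chain specific to IL-27, fell in B6.SLE123 mice while Ebi3, the chain it pairs with, did not pass the test. Il27 lies on chromosome 7 from 126589010 to 126594941 on the minus strand, and Ebi3 on chromosome 17 from 55952640 to 55957022 on the plus strand, with 5 exons each. Il27 stood at 4.96, 3.72, 5.06 and 4.93 CPM in the C57BL/6 mice and at 2.25, 1.61, 3.37 and 1.42 CPM in the B6.SLE123 mice. All 4 B6.SLE123 mice were below all C57BL/6 mice. The means were 4.67 ± 0.633 CPM and 2.16 ± 0.882 CPM (SD, n = 4 each), a log2 fold change of -1.10 with a standard error of 0.24, which is a 2.14-fold lower level (adjusted p = 0.00264, edgeR's quasi-likelihood test). This was the largest fall among the 9 cytokine genes.

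Ebi3 stood at 32.9, 30.1, 32.6 and 33.9 CPM in the C57BL/6 mice and at 29.5, 31.4, 31.0 and 34.6 CPM in the B6.SLE123 mice. The ranges overlapped almost wholly. Its log2 fold change was -0.04, with a 95% confidence interval from -0.17 to 0.10 (adjusted p = 0.648, edgeR). Il27 overlaps Apobr, a lipoprotein receptor gene on the opposite strand, and Ebi3 overlaps the antisense gene Gm16712. Whether counting used the strand is not stated, so reads of these pairs may not be told apart. Apobr, named after its values were seen, was at 203 to 229 CPM over all 8 mice, with a log2 fold change of 0.04 (adjusted p = 0.501, edgeR).

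Within each mouse there were 6.61, 8.04, 6.43 and 6.85 Ebi3 counts per Il27 count in C57BL/6 mice and 13.03, 19.3, 9.17 and 24.1 in B6.SLE123 mice. All B6.SLE123 mice were again outside the range of the other strain, and their ratios were spread more widely. The mean log2 ratio rose from 2.80 ± 0.14 to 3.94 ± 0.62 (SD, n = 4 each), a difference of 1.14 or 2.21-fold (exact two-sided permutation test, p = 0.0286, adjusted p = 0.0429). With Ebi3 nearly level, this difference mostly restates the fall of Il27 and is not separate support for it. The ratio of Ebi3 to Il12a, the chains of IL-35, was 49.7, 25.7, 32.0 and 28.8 in C57BL/6 mice and 47.8, 54.3, 36.8 and 83.8 in B6.SLE123 mice. Here the strains overlapped, through C57BL/6 replicate 1, and the difference of 0.69 on the log2 scale did not pass the test (exact two-sided permutation p = 0.0857, adjusted p = 0.0857).

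**Figure D2:**
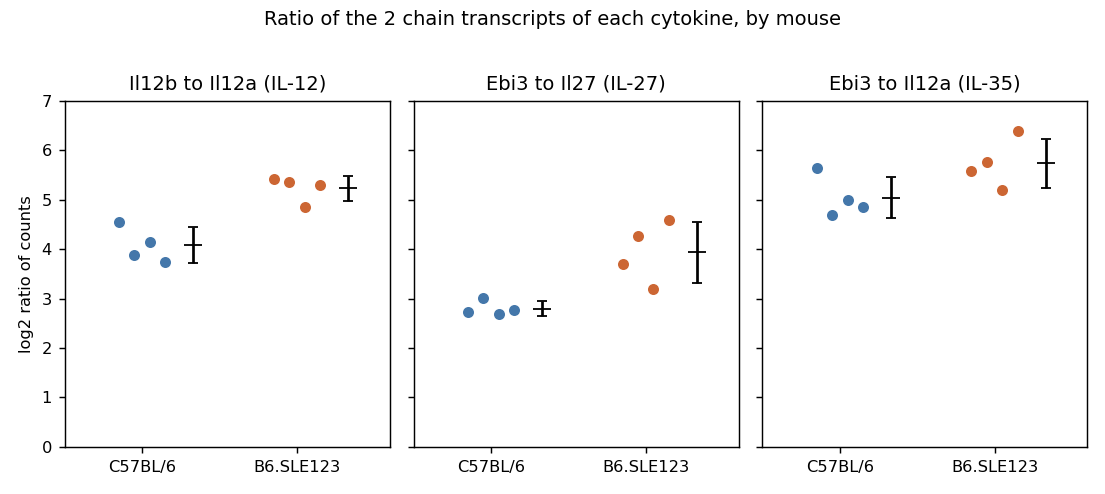
Log2 ratio of the counts of the 2 chains of IL-12, IL-27 and IL-35 in each mouse, with 0.5 added to each count. Points are mice and the bars beside them the mean with the standard deviation. The B6.SLE123 mice lie above all C57BL/6 mice for IL-12 and IL-27 and overlap them for IL-35.

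Tgfb1 was the most abundant of the cytokine messages in both strains and fell in B6.SLE123 mice, by a difference whose standard error was the smallest of the 9 genes. It encodes TGF-beta 1, which is secreted in a latent form and restrains T cells and myeloid cells once released. It lies on chromosome 7 from 25687002 to 25705077 on the plus strand and overlaps no other annotated gene. Tgfb1 stood at 524, 502, 519 and 546 CPM in the C57BL/6 mice and at 391, 370, 405 and 419 CPM in the B6.SLE123 mice. The highest B6.SLE123 mouse was below the lowest C57BL/6 mouse. The log2 fold change was -0.40 with a standard error of 0.05 (adjusted p = 4.65e-05, edgeR's quasi-likelihood test), and it stayed between -0.44 and -0.38 when each mouse was left out in turn.

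The Tgfb1 promoter is shown beside that of Il12b because Tgfb1 is the most abundant of the messages and the base composition of its window differs from that of Il12b. Capitals mark the GC box GGGCGG or its reverse complement CCGCCC:
Tgfb1, chr7:25686752-25687051, plus strand: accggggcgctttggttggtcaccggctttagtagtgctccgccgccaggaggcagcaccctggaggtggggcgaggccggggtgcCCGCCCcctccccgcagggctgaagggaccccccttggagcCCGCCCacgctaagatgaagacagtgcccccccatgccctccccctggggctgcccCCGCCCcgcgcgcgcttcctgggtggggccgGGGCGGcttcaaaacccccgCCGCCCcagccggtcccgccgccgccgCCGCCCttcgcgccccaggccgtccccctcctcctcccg
This window held 6 GC boxes, 30 CpG dinucleotides and a GC content of 77.0%, against 4 CpG and 48.0% in the window of Il12b and medians of 7 CpG and 52.7% over all promoters.

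Tnf and Il15 fell by about as much as Tgfb1. Tnf, on chromosome 17 from 35199381 to 35202007 on the minus strand, encodes the membrane-bound precursor of TNF. It stood at 30.9, 32.3, 28.3 and 30.6 CPM in the C57BL/6 mice and at 21.6, 26.96, 22.99 and 21.9 CPM in the B6.SLE123 mice. All B6.SLE123 mice were lower, with replicate 2 the nearest to the control range. The log2 fold change was -0.38 with a standard error of 0.08 (adjusted p = 0.00155, edgeR).

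Il15, on chromosome 8 from 82331632 to 82403222 on the minus strand, encodes a cytokine that is handed to neighbouring lymphocytes on the IL-15 receptor alpha chain. It stood at 20.9, 19.96, 18.5 and 18.5 CPM in the C57BL/6 mice and at 14.5, 15.8, 16.04 and 12.95 CPM in the B6.SLE123 mice. Again no value overlapped, and the log2 fold change was -0.39 with a standard error of 0.08 (adjusted p = 0.00167, edgeR). The calls for Tgfb1, Tnf, Il15, Il27 and Il12b were kept in each of the other fits, including each fit that left out a mouse.

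Il10 and Il6 were close to the lower limit of what these libraries can measure. Il10, on chromosome 1 from 131019845 to 131024974, had 5, 5, 9 and 7 counts in the C57BL/6 mice and 12, 16, 45 and 5 counts in the B6.SLE123 mice. B6.SLE123 replicate 3 held more Il10 counts than the other mice of its strain together, and replicate 4 lay within the control range. The log2 fold change was 1.40 with a 95% confidence interval from 0.17 to 2.63 and an adjusted p of 0.0541 from edgeR. Without replicate 3 it was 0.61 (adjusted p = 0.200). The adjusted p passed the threshold without B6.SLE123 replicate 1 or 4 (0.0496 and 0.0192) and in DESeq2 (0.0453), so a call for Il10 depends on single mice and on the test.

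Il6, on chromosome 5 from 30013114 to 30019981, had 6, 16, 18 and 18 counts in the C57BL/6 mice and 20, 33, 32 and 15 counts in the B6.SLE123 mice. In CPM, each B6.SLE123 mouse was above the C57BL/6 mean, but the lowest of them lay within the control range. The log2 fold change was 0.62, with a 95% confidence interval from -0.06 to 1.31 and an adjusted p of 0.115 from edgeR. A difference in Il6 was not detectable at this depth.

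**Figure D3:**
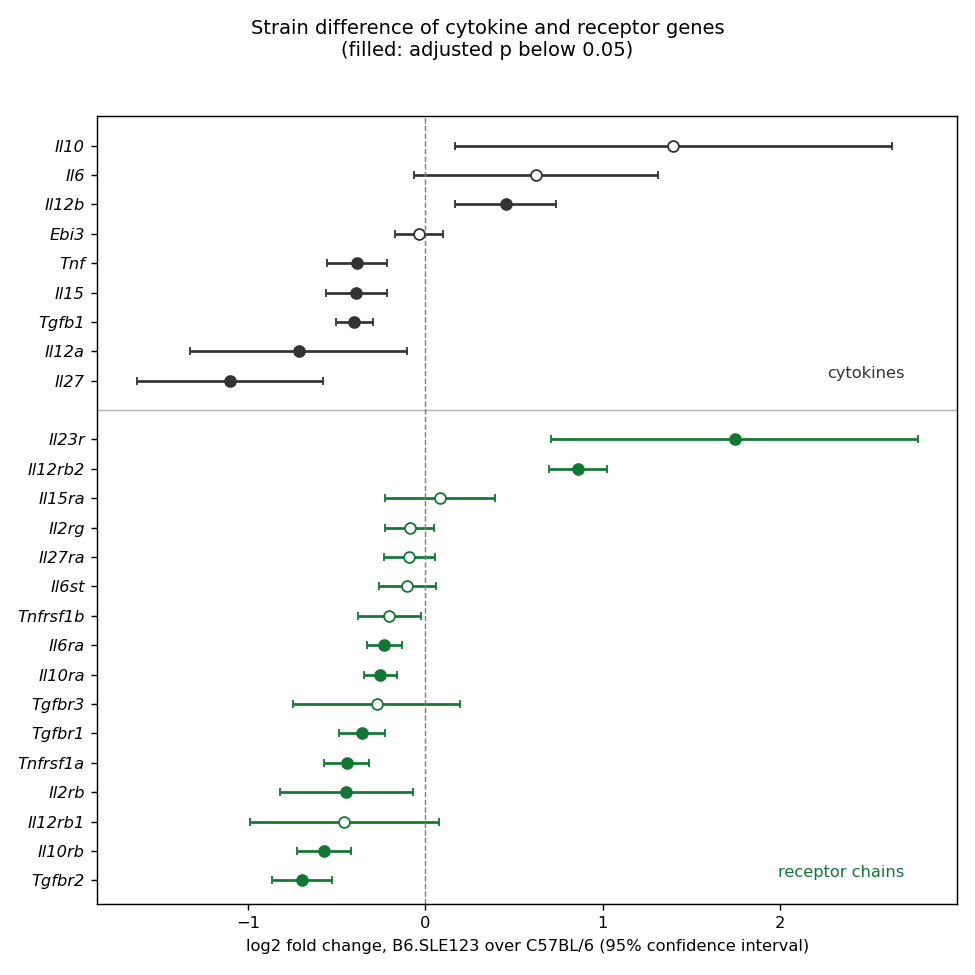
Log2 fold change of each cytokine gene and receptor chain, B6.SLE123 over C57BL/6, with its 95% confidence interval. Filled points have an adjusted p below 0.05. Il12b is the only filled cytokine gene to the right of 0, and Il12rb2 and Il23r are the only filled receptor chains there.

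The receptors of these cytokines were measured in the same mixed samples, and all 16 chains had a row. Of them, 2 were higher, 7 were lower and 7 did not pass the test, beside 26.7% and 26.6% of all genes, with a median log2 fold change of -0.24. Il12rb2, the signalling chain that completes the IL-12 receptor, was the clearest rise. It stood at 20.5, 24.6, 20.95 and 19.9 CPM in the C57BL/6 mice and at 37.1, 37.8, 42.7 and 38.4 CPM in the B6.SLE123 mice. The strains were far apart for this gene, with a log2 fold change of 0.86 and a standard error of 0.07 (adjusted p = 4.38e-06, edgeR). It overlaps Serbp1 on the other strand.

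The chain that IL-12 and IL-23 receptors share, Il12rb1, was rare, at 1.199 ± 0.183 and 0.861 ± 0.253 CPM (SD, n = 4 each), and did not pass (log2 fold change -0.46, adjusted p = 0.134, edgeR) unless B6.SLE123 replicate 3 was left out (adjusted p = 0.0473). Il23r, the chain specific to the IL-23 receptor, had 5, 3, 2 and 3 counts in the C57BL/6 mice and 15, 20, 6 and 9 counts in the B6.SLE123 mice. Its log2 fold change was 1.74 with a standard error of 0.47 (adjusted p = 0.00917, edgeR), and the call was kept when any single mouse was left out. At such counts the size of the difference is uncertain, and its 95% confidence interval ran from 0.71 to 2.78. A gene has a row when its larger strain median is at least 5 counts, which Il23r met only through the B6.SLE123 mice. Its call, the stability of that call and its place among the higher chains are thus not independent of how the rows were chosen. Il27ra and Il6st, the chains of the IL-27 receptor, did not pass, with log2 fold changes of -0.09 and -0.10.

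Both signalling receptors of TGF-beta fell together with Tgfb1. Tgfbr2, which binds the ligand, stood at 254, 245, 273 and 235 CPM in the C57BL/6 mice and at 156, 133, 162 and 171 CPM in the B6.SLE123 mice. No mouse overlapped, and the log2 fold change was -0.70 with a standard error of 0.08 (adjusted p = 2.31e-05, edgeR). Tgfbr1, the kinase that Tgfbr2 recruits, fell from 138 ± 10.01 to 108 ± 5.76 CPM (SD, n = 4 each), a log2 fold change of -0.36 (adjusted p = 0.000426, edgeR). The coreceptor Tgfbr3 was at 1.92 to 3.07 CPM and 1.63 to 2.753 CPM and did not pass (adjusted p = 0.303, edgeR).

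Of the TNF receptors, Tnfrsf1a fell from 146 ± 6.56 to 107 ± 7.62 CPM (SD, n = 4 each), a log2 fold change of -0.44 (adjusted p = 7.32e-05, edgeR). Tnfrsf1b, with a log2 fold change of -0.20 and an adjusted p of 0.0519 in edgeR, was just above the threshold and passed it in DESeq2 (adjusted p = 0.0362) and without B6.SLE123 replicate 1 or 4 (adjusted p = 0.0325 and 0.00862, edgeR). Both chains of the IL-10 receptor fell: Il10rb, which other cytokine receptors share, by 0.57 on the log2 scale and Il10ra by 0.25 (adjusted p = 4.63e-05 and 0.000500, edgeR). Il6ra fell from 296 ± 2.68 to 252 ± 14.4 CPM (SD, n = 4 each; log2 fold change -0.23, adjusted p = 0.00141, edgeR). Il10ra, Il10rb, Il6ra, Il27ra, Il2rg and Tgfbr3 overlap other annotated genes, so part of their reads is uncertain. The same holds for Zfp36, Itgav, Smad4, Zc3h12d, Rc3h1, Maf, Ahr, Irak3 and Traf3 among the pathway genes named below.

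Il15ra, which presents IL-15, was at 24.5, 24.3, 23.2 and 23.7 CPM in the C57BL/6 mice and at 21.9, 27.1, 33.0 and 18.7 CPM in the B6.SLE123 mice. The B6.SLE123 mice lay on both sides of the narrow control range, and the log2 fold change of 0.08 did not pass (adjusted p = 0.653, edgeR). Il2rb, the chain shared by the IL-2 and IL-15 receptors, had a log2 fold change of -0.44 and an adjusted p of 0.0465 in edgeR, which moved above the threshold, to between 0.0622 and 0.135, when any mouse other than C57BL/6 replicate 4 or B6.SLE123 replicate 1 was left out. Il2rg, the common gamma chain, did not pass (log2 fold change -0.09, adjusted p = 0.265, edgeR).

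**Figure D4:**
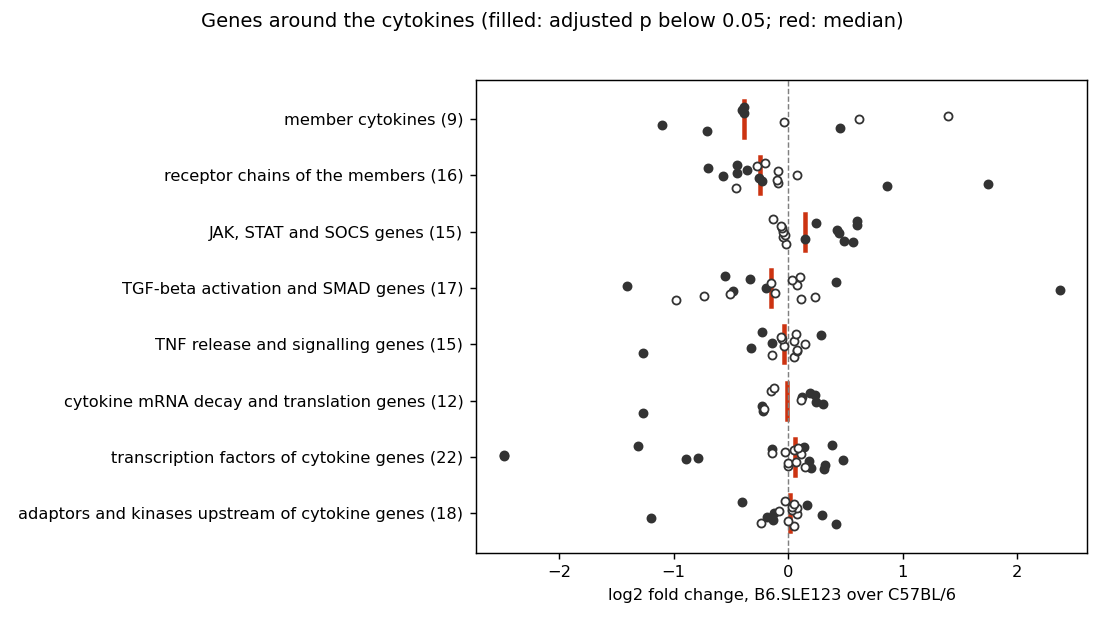
Log2 fold change of every gene in the lists around the cytokines, B6.SLE123 over C57BL/6, with the number of genes in brackets. Filled points have an adjusted p below 0.05 and red bars are the medians of the lists. The median lies at -0.38 for the cytokine genes, at 0.15 for the JAK, STAT and SOCS genes and at -0.15 for the TGF-beta genes.

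Many cytokine receptors, but not those of TGF-beta or TNF, signal through Janus kinases and STAT factors and are curbed by SOCS proteins. Of 15 genes of these families, 8 rose, none fell and 7 did not pass, with a median log2 fold change of 0.15. The share called was close to that of the whole table, in which 53.4% of genes were called, 26.7% as higher and 26.6% as lower. Socs3 rose from 17.3 ± 0.904 to 26.2 ± 4.70 CPM and Socs1 from 9.45 ± 1.123 to 14.3 ± 0.817 CPM (SD, n = 4 each), both by 0.60 on the log2 scale (adjusted p = 0.000895 and 0.000248, edgeR). SOCS3 binds the IL-6 receptor chain encoded by Il6st, and SOCS1 curbs interferon signalling.

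Of 18 genes that release TGF-beta or carry its signal, 17 had a row, 2 rose, 5 fell and 10 did not pass, so that a smaller share was called than the 53.4% of all genes. Itgb8 encodes the integrin chain that, paired with the product of Itgav, frees active TGF-beta from its latent form on dendritic cells. Itgb8 stood at 0.416, 0.537, 0.122 and 0.199 CPM in the C57BL/6 mice and at 2.15, 1.37, 1.07 and 1.89 CPM in the B6.SLE123 mice. It was low in every mouse but without overlap, and its log2 fold change was 2.37 with a standard error of 0.39 (adjusted p = 0.000459, edgeR). Its partner Itgav moved the other way, from 114 ± 9.90 to 81.9 ± 1.31 CPM (SD, n = 4 each; log2 fold change -0.48, adjusted p = 4.56e-05, edgeR). Smad4, the SMAD that all TGF-beta family receptors share, rose by 0.42 on the log2 scale, and Tgif1, a repressor of SMAD targets, fell by 0.55 (adjusted p = 3.10e-05 and 5.10e-05, edgeR).

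Of 15 genes for TNF release and signalling, 1 rose, 4 fell and 10 did not pass, again a smaller share called than the 53.4% of all genes, with the share that fell close to the 26.6% of the table. Rhbdf2 encodes iRhom2, which brings the protease that sheds TNF to the cell surface of myeloid cells. It stood at 84.0, 86.3, 99.2 and 89.9 CPM in the C57BL/6 mice and at 38.8, 33.0, 37.1 and 40.9 CPM in the B6.SLE123 mice. The groups were far apart, with a log2 fold change of -1.27 and a standard error of 0.07 (adjusted p = 4.28e-07, edgeR). Tradd, an adaptor of TNF receptor 1, fell by 0.32 on the log2 scale, and Tnfaip3, which encodes the NF-kB brake A20, rose by 0.29 (adjusted p = 0.00139 and 0.000971, edgeR).

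Of 12 genes for the decay and translation of cytokine messages, 5 rose, 3 fell and 4 did not pass, against 26.7% higher and 26.6% lower among all genes. Zfp36, whose product binds AU-rich elements such as those shown above for Tnf, stood at 852, 802, 704 and 748 CPM in the C57BL/6 mice and at 324, 304, 392 and 268 CPM in the B6.SLE123 mice. All B6.SLE123 mice were far below the control range, with a log2 fold change of -1.27 and a standard error of 0.10 (adjusted p = 2.89e-06, edgeR). Zc3h12a, which encodes the RNase Regnase-1, fell by 0.23 on the log2 scale, and its relative Zc3h12d rose by 0.31 (adjusted p = 0.0112 and 7.78e-05, edgeR). Rc3h1, which encodes the decay factor Roquin-1, rose by 0.24 (adjusted p = 0.00405, edgeR). The measured cytokine genes with 4 or more heptamers had log2 fold changes of -0.38 (Tnf), -0.71 (Il12a), -1.10 (Il27) and 1.40 (Il10). Those with 1 heptamer had 0.45 for Il12b and 0.62 for Il6. Those with none had -0.04 for Ebi3, -0.39 for Il15 and -0.40 for Tgfb1. The values of Il10, Il6 and Ebi3 did not pass the test, and that of Il10 was 0.61 without B6.SLE123 replicate 3. A relation between the elements and the differences was not tested.

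Of 22 transcription factors of cytokine genes, 7 rose, 6 fell and 9 did not pass, shares near the 26.7% and 26.6% of all genes, and their median log2 fold change was 0.06. Maf, a known activator of Il10, stood at 303, 272, 343 and 278 CPM in the C57BL/6 mice and at 45.1, 32.8, 71.3 and 65.7 CPM in the B6.SLE123 mice. The strains were far apart, at 299 ± 32.6 and 53.7 ± 17.9 CPM (SD, n = 4 each), a log2 fold change of -2.48 with a standard error of 0.21 (adjusted p = 3.21e-06, edgeR). Vcam1 and Csf1r, the most abundant of the red pulp macrophage markers, had log2 fold changes of -2.45 and -2.18, and the part of that cell type in the fall of Maf was not tested. Ahr rose by 0.38 and Relb by 0.32 on the log2 scale (adjusted p = 8.54e-05 and 0.00216, edgeR). Relb is also counted among the markers of mature dendritic cells. Batf3 and Prdm1 of this list and Socs2 of the JAK, STAT and SOCS list are cell type markers here as well.

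Of 18 adaptors and kinases that lie between innate receptors and cytokine genes, 3 rose, 5 fell and 10 did not pass, a smaller share called than the 53.4% of all genes. Irak3, an inhibitor of Toll-like receptor signalling, fell from 13.4 ± 1.41 to 5.85 ± 1.42 CPM (SD, n = 4 each), a log2 fold change of -1.20 (adjusted p = 7.96e-05, edgeR). Syk, the kinase of Fc and lectin receptors, fell by 0.41 on the log2 scale (adjusted p = 0.000175, edgeR). Ticam1 and Traf3, which act downstream of endosomal Toll-like receptors, rose by 0.42 and 0.30 (adjusted p = 0.000652 and 0.000430, edgeR).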

How the data were processed

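RNA sequencing covered 4 C57BL/6 and 4 B6.SLE123 samples of CD11c-positive splenocytes. Per the methods and labels, cutadapt trimming and STAR alignment to mm10 preceded counting with featureCounts, and the authors deposited raw counts per gene, without normalization. Versions and the strand setting of the counting are not given in the sources used here. The authors' DESeq2 columns (fold changes, p-values) were not used. Totals were 25563070 to 37367094 counts per mouse. Each gene's larger strain median was at least 5 counts, so rarer genes were not tested.

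Strain was taken from sample titles, because numbers in the genotype field rise from mouse to mouse. Whether mice shared a litter or day is not stated. The p-values set the strain difference against the spread between mice of a strain. A litter or day that differed with strain could not be told apart from strain. Counts were scaled by TMM and compared by the quasi-likelihood F test of edgeR 4.0.16 in R 4.3.3. P-values were adjusted by Benjamini-Hochberg over all 13786 genes, and the script was tested on simulated data. Coordinates are mm10, and 13663 genes have the same ones in GENCODE M21. Chain ratios were compared by exact permutation. Alternatives were relative log expression factors, library totals alone, a minimum of 10 counts per sample, limma-voom (limma 3.58.1), DESeq2 1.42.0, a block for the replicate number, 2 added to each count in ratios, a more than 2-fold change in addition, and each mouse left out. Cytokine genes and receptor chains were all named, as were in each other pathway list the 2 largest rises and falls without overlap among called genes, and at most the 2 most abundant markers of a list; 1 gene that this rule names is not reported here. The members and lists were chosen with earlier results of these data known. Promoters for 6 of the 10 genes matched the RefSeq table (GRCm38.p6).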

Additional observations from a re-analysis of the deposited data

Results flagged for a closer look

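Single mice stood apart from the others of their strain in log2 CPM, by the gap to the nearest mouse against the range of the strain, for 2 genes. C57BL/6 replicate 2 had the lowest Il27 level, 1.92 against a median of 2.33 in its strain, and was still above every B6.SLE123 mouse. C57BL/6 replicate 1 had the lowest Il6 level, -1.77 against a median of -0.65, from 6 counts. In all, 56 groups of 4 mice were examined in this way (the cytokine genes, the receptor chains and the chain ratios in each strain), and chance alone flags about 1 in 20 of them, or 2.8.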

How the results depend on the processing

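Of 124 values of the cytokine genes under other settings, 111 kept their direction and side of the threshold, and those that did not concern Il12a (9) and Il10 (4). Of 223 values of the receptor chains, 208 did, and the others concern Tnfrsf1b (7), Il2rb (6), Il12rb1 (1) and Il15ra (1). Requiring more than 2-fold change left 1524 genes called, with 0 cytokine genes higher and 1 lower, and 1 receptor chain higher and 0 lower. The number of cytokine genes higher was 2 instead of 1 with DESeq2 and with the replicate block, and 1 to 2 without single mice, each time through Il10. A minimum of 10 counts per sample left 1 receptor chain higher, because Il23r was removed, and Il6 and Il10 were removed too. Without single mice 6496 to 7013 genes were called, and Il15ra, not called, changed sign without B6.SLE123 replicate 3, with log2 fold changes of -0.076 to 0.18 without single mice. The median of all genes stayed between -0.0114 and 0.000471 under each setting.

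With the replicate number as a block, 7183 genes were called, Il12a had an adjusted p of 0.0726 and Il10 of 0.0336. Mice with the same number correlated at 0.0463 to 0.173 in their deviations from the strain means, and only 2 of 4 C57BL/6 mice correlated best with their own number, so the numbers were not taken as pairs. Paired by number, the chain ratios cannot pass the threshold, since the smallest p that sign flips of 4 pairs allow is 0.125. The ratio of Il12b to Il23a was not run, because Il23a has no row. Without single mice the difference was 1.04 to 1.31 for Il12b to Il12a, 0.93 to 1.39 for Ebi3 to Il27 and 0.47 to 0.89 for Ebi3 to Il12a. Depth limits Il6, Il10, Il12a and Il23r, which had 2 to 45 counts per mouse.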
